A study of Mus musculus with 3 samples.

Results

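The 8 genes Slc2a2, Abcc8, Kcnj11, Cacna1c, Cacna1d, Glp1r, Gipr and Pcx, which serve glucose sensing and membrane excitability in β cells, were followed through an Ets-1 ChIP-seq experiment. Every region whose deposited nearest gene was one of them was taken, from the authors' comparison table of both precipitations and from the peak list of each. This gave 115 of 543367 regions in the table, 48 of 237322 peaks in the Ad-Ets-1 list and 73 of 339856 in the Ad-GFP list. Chromatin came from Min6 cells, a mouse insulinoma line that secretes insulin, grown in 25 mM glucose. They had been given an adenovirus that overexpresses Ets-1 (Ad-Ets-1) or a control adenovirus (Ad-GFP) for 24 h, and chromatin of both was precipitated with 1 Ets-1 antibody after 10 min in 1% formaldehyde. The remaining library is input chromatin, and the labels do not state its virus. With 1 library in each group there is no replicate check of any difference below, and p-values are not given. Expression was not measured, so the line could not be checked against β-cell markers.

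In a β cell, glucose enters through the transporter GLUT2 (Slc2a2) and is metabolised, partly through the anaplerotic enzyme pyruvate carboxylase (Pcx). The resulting ATP closes a potassium channel built from the sulphonylurea receptor SUR1 (Abcc8) and the pore Kir6.2 (Kcnj11), the membrane depolarises, and L-type calcium channels with the pore subunits CaV1.2 (Cacna1c) and CaV1.3 (Cacna1d) admit the calcium that triggers insulin release. The incretin receptors Glp1r and Gipr raise cAMP and amplify that release. Ets-1 is a transcription factor of the ETS family, whose members bind DNA around the core GGAA, read as TTCC on the opposite strand.

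The sequences under the 5 peaks of these genes that had a q-value of at most 0.05 in the authors' lists are shown because these 5 had the lowest q-values. Each is the 200 bp around the deposited summit, read from GRCm38 (mm10), 5′ to 3′ on the plus strand, in lower case with GGAA and TTCC in capitals. The first 4 are from the Ad-Ets-1 list and the last is from the Ad-GFP list.
Abcc8 intron 3 of 25, chr7:46134864-46135063, plus strand: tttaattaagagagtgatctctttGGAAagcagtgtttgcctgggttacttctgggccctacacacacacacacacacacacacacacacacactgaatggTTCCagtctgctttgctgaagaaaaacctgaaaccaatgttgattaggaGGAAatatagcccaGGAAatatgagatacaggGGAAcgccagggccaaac
Abcc8 intron 10 of 38, chr7:46146193-46146392, plus strand: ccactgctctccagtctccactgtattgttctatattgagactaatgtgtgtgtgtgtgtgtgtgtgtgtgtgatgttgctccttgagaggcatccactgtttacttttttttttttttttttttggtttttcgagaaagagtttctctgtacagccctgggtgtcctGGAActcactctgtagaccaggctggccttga
Cacna1d intron 3 of 46, chr14:30313870-30314069, plus strand: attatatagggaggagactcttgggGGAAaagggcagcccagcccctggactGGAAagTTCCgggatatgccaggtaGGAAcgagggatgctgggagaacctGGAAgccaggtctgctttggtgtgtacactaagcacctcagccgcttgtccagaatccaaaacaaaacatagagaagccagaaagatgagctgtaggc
Pcx start, chr19:4510603-4510802, plus strand: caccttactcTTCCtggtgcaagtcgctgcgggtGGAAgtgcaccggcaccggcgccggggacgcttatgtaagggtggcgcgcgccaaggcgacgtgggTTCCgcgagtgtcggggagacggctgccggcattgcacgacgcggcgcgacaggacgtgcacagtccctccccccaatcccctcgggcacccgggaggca
Cacna1c intron 30 of 46, chr6:118632631-118632830, plus strand: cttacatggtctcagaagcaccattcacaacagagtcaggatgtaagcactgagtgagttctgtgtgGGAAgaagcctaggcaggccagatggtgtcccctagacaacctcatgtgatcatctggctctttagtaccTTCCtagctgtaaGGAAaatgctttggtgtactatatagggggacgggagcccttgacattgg

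The ETS core was frequent in these windows but also in any window. GGAA or TTCC occurred 5 times in the Abcc8 intron 3 window, 1 time in the Abcc8 intron 10 window, 5 times in the Cacna1d window and 3 times in each of the Pcx and Cacna1c windows. The word GGAA, counted on both strands, was present in 87.5% of all windows of the Ad-Ets-1 list and in 42 of the 48 of these genes. In the Ad-GFP list it was present in 87.4% of all windows and in 63 of 73. Of 2 longer ETS words that contain GGAA, CCGGAAGT was in none of the 121 windows of these genes, against 0.132% and 0.115% of all windows in the Ad-Ets-1 and Ad-GFP lists. The word CAGGAAGT was in 1 of 48 windows (Glp1r) and in 2 of 73 (Cacna1c and Cacna1d), against 1.26% and 1.22% of all. Both Abcc8 windows hold long CA repeats, with 16 and 14 CA units in a row, read as TG on the other strand. A run of at least 8 CA units (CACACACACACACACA, either strand) was present in 2.59% of all Ad-Ets-1 windows and in 9.6% of those with a q-value of at most 0.05. Soft-masked bases, which mark repeats in the reference, made up 38% and 74% of the Abcc8 windows, 57% of the Cacna1d window, 10% of the Pcx window and 0% of the Cacna1c window. The part of repeats in the signal was not tested.

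The counts and RPM values of the table gave library totals of 1938473 Ad-Ets-1 reads, 1775757 Ad-GFP reads and 3937472 input reads. Of the nonzero counts, 72.0% (Ad-Ets-1) and 74.5% (Ad-GFP) were even, against 19.0% for the input. The mates of a pair may thus be counted separately in the precipitated libraries. These shares come from regions chosen by peak calling, and many counts were exactly 2 (35 of the 115 regions with Ad-Ets-1, 49 with Ad-GFP). Whether mates were counted was not tested. Intervals of ratios were computed on fragments of 2 reads, the wider choice. They are exact binomial intervals at the 95% level and cover counting error only. Since PCR reads that carry no molecular identifiers are not independent molecules, the intervals may still be too narrow.

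The regions of the 8 genes were thinly read. Together they held 139 Ad-Ets-1 reads, 185 Ad-GFP reads and 21 input reads over 31268 bp, and 90 of the 115 (78.3%, against 80.8% of all regions) had 2 or fewer reads in both precipitated libraries. The median region held 0 reads with Ad-Ets-1 and 2 with Ad-GFP. In the input 101 regions were at 0, 7 had 1 read and 7 had 2. One precipitated library was at 0 in 98 regions while the other was not, and 9 regions had at least 2 reads in both. Peaks of the narrowest width in a list (249 bp with Ad-Ets-1, 238 bp with Ad-GFP) made up 41 of 48 and 59 of 73, against 84.2% and 84.7% of all peaks.

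Of the 115 regions, 6 were called in both lists, 42 in the Ad-Ets-1 list alone and 67 in the Ad-GFP list alone. Ad-Ets-1 thus had 38.5% of the 109 regions called in 1 list (exact interval 29.4 to 48.3), close to its 40.0% over all regions of the table. From the side of the lists, 6 of 48 Ad-Ets-1 peaks (12.5%, against 14.1% of all) overlapped an Ad-GFP peak, and 6 of 73 Ad-GFP peaks (8.22%, against 9.86%) overlapped an Ad-Ets-1 peak. Abcc8 and Pcx were the members with more regions in the Ad-Ets-1 list alone than in the Ad-GFP list alone. The other 6 had more in the Ad-GFP list alone.

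**Figure D1:**
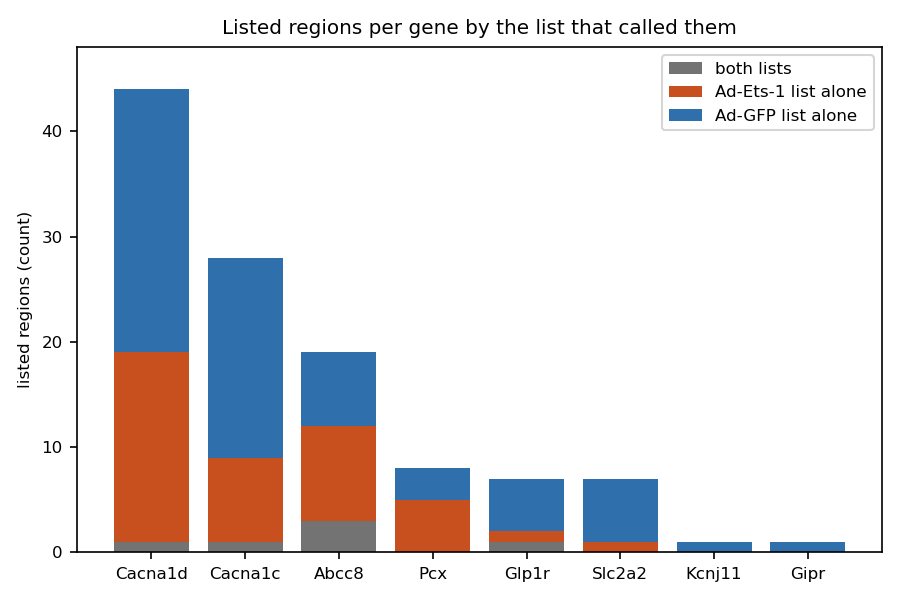
Number of listed regions of each gene (vertical axis) by the list that called them, stacked from both lists (grey) through the Ad-Ets-1 list alone (orange) to the Ad-GFP list alone (blue). Cacna1d has 44 regions and Cacna1c has 28, while Kcnj11 and Gipr have 1 each.

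The deposited annotation placed 86 of the 115 regions in introns (74.8%, against 34.1% of all regions), 13 in promoters (11.3%, exact interval 6.16 to 18.6, against 7.69%), 8 in distal intergenic sequence (6.96%, against 52.6%), 6 in 3′ UTRs and 2 in exons. Of the 86 intron regions, 35 were named for Cacna1d and 26 for Cacna1c, genes of 451.5 and 609.2 kb. Gene length was not matched in these shares. Inside the span of their own gene lay 98 regions. A promoter here is within 2 kb of the start of any transcript, and 10 of the 13 promoter regions lay farther than that from the 5′ end of the gene itself, at starts of shorter transcripts. The other 3 belonged to Cacna1d (2) and Pcx (1). Regions that also overlapped another annotated gene numbered 19. The spans of the 8 genes held 159 listed regions in all, and 61 of them carried another gene name or none, with at most 6 reads each.

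Slc2a2 encodes GLUT2, the glucose transporter of the rodent β cell (chr3:28697903-28731359, plus strand). It had 7 regions, 1 in the Ad-Ets-1 list and 6 in the Ad-GFP list. Over 1838 bp they held 4 Ad-Ets-1 reads, 14 Ad-GFP reads and 0 input reads. Its most read region, chr3:28690300-28690698, lay 7205 bp before the gene in intergenic sequence and held 2 Ad-Ets-1 reads, 4 Ad-GFP reads and 0 input reads. It was also the region nearest the 5′ end. The remaining 6 regions lay inside the gene and within the overlapping gene 1700112D23Rik, and none exceeded 2 reads. The promoter region of Slc2a2, chr3:28722494-28722731, lay 24591 bp into the gene at the start of a shorter transcript, with 0 reads for Ad-Ets-1 and 2 for Ad-GFP.

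Pcx encodes pyruvate carboxylase, the mitochondrial enzyme that turns pyruvate into oxaloacetate (chr19:4510472-4621752, plus strand). Its most read region, chr19:4510573-4510821, lay at the start of the gene, 101 bp after the 5′ end, over the end of the first exon and the beginning of the first intron. It held 6 Ad-Ets-1 reads, 0 Ad-GFP reads and 0 input reads. In the authors' deposited peak list it had a fold enrichment of 3.60 and a −log10 q of 1.42. The 6 reads are 1.83 times a floor of 3 Ad-GFP reads after scaling, and the interval of the ratio ran from 0.379 with no upper limit, so it includes equal read densities. Of the 8 genes, Pcx alone had an Ad-Ets-1 region within 1 kb of its 5′ end, against 16.7% of 21755 protein-coding genes. At 70% GC its window is the most GC-rich of the 5 sequences shown.

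Elsewhere Pcx was nearly empty. Upstream of the gene, chr19:4505786-4506325 held 0 Ad-Ets-1 reads, 4 Ad-GFP reads and 2 input reads. The other 6 regions had at most 2 reads in any library. In all, the 8 regions held 13 Ad-Ets-1, 8 Ad-GFP and 2 input reads over 2261 bp, with 5 called in the Ad-Ets-1 list and 3 in the Ad-GFP list.

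Abcc8 encodes SUR1, the regulatory subunit of the ATP-sensitive potassium channel and the target of sulphonylureas (chr7:46104523-46180033, minus strand). It carried 19 regions, of which 9 were called in the Ad-Ets-1 list alone, 7 in the Ad-GFP list alone and 3 in both. Over 5853 bp these held 43 Ad-Ets-1 reads, 24 Ad-GFP reads and 2 input reads. Such a sum depends on which regions each list called. With 31.8 listed regions per 100 kb inside its span, Abcc8 lay above the upper quartile of 17694 protein-coding genes of at least 5 kb (median 16.8, quartiles 9.06 and 24.3), the density counting all regions in the span whatever their named gene.

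The regions of Abcc8 were spread along the gene, up to 72999 bp from its 5′ end, and the most read lay near its middle. Of its 17 regions inside the gene, the first stood 15.9 kb from the 5′ end, and 6 fell within 10 kb that began 34.8 kb into the gene, with 17 Ad-Ets-1, 9 Ad-GFP and 0 input reads. The most read region with Ad-Ets-1 was chr7:46134755-46135309 in intron 3 of 25 of a shorter transcript, 1320 bp after its start and 44724 bp from the 5′ end of the gene. It held 8 Ad-Ets-1 reads, 0 Ad-GFP reads and 0 input reads, 2.44 times the floor of 3 Ad-GFP reads, with an interval from 0.605 with no upper limit. The authors' deposited peak list gives it a fold enrichment of 3.68 and a −log10 q of 1.54.

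A second Abcc8 peak, chr7:46146162-46146437 in intron 10 of 38, held 6 Ad-Ets-1 reads, 1 Ad-GFP read and 0 input reads. The scaled ratio of reads was 5.50. Its interval, on fragments with odd counts rounded up, was 0.221 to 144 and includes 1. Its deposited fold enrichment was 3.64 and its −log10 q 1.54. The most read promoter region of Abcc8, and its most read region of any class, was chr7:46139778-46140404, which was called in both lists. It held 6 Ad-Ets-1 reads, 4 Ad-GFP reads and 0 input reads (ratio 1.37, interval 0.157 to 16.5). It was the single region of the 8 genes with over 3 reads in both precipitated libraries. The comparison table and the Ad-Ets-1 list place it in the promoter of a shorter transcript, the Ad-GFP list in an intron, and it lay 39629 bp from the 5′ end of the gene.

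The other way round, chr7:46155696-46156182 in intron 7 of 38 held 1 read with Ad-Ets-1, 5 with Ad-GFP and 0 in the input. The listed region nearest the Abcc8 5′ end, chr7:46187058-46187295, lay 7025 bp before it and held 0, 2 and 0 reads in the same order.

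Kcnj11 encodes Kir6.2, the pore of the same channel, and is the neighbour of Abcc8 on chromosome 7 (chr7:46093953-46100764, minus strand). Its single region, chr7:46096184-46096421, lay 4343 bp into the gene in intron 1 of 2 of an annotated transcript. It held 0 Ad-Ets-1 reads, 4 Ad-GFP reads and 0 input reads and was called in the Ad-GFP list alone. The pore and its regulatory subunit thus differed in the number of listed regions, 1 against 19, in genes of 6.8 and 75.5 kb. Per 100 kb the densities were 14.7 and 31.8, the first resting on 1 region.

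**Figure D2:**
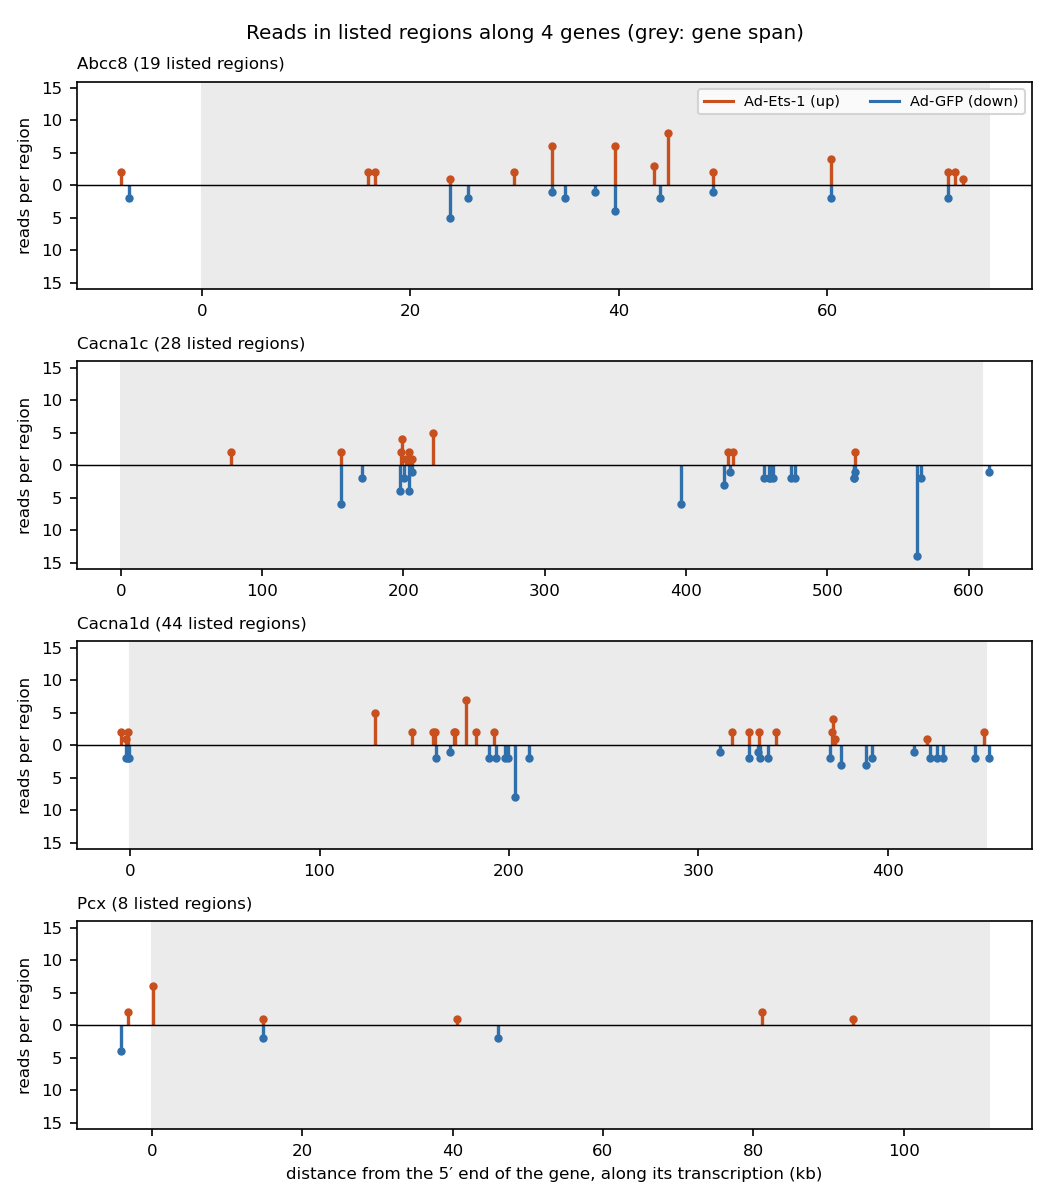
Reads in each listed region (vertical axis, reads per region) of Abcc8, Cacna1c, Cacna1d and Pcx by distance from the 5′ end of the gene in kb (horizontal axis), with the Ad-Ets-1 library upwards in orange and the Ad-GFP library downwards in blue; the gene span is grey and 1 library stands behind each colour. The tallest Ad-Ets-1 line is 8 reads in Abcc8, the tallest Ad-GFP line is 14 reads in Cacna1c, and Pcx has its tallest line, 6 reads, at the 5′ end.

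Cacna1c encodes CaV1.2, an L-type channel pore (chr6:118587240-119196418, minus strand, 609.2 kb). Its 28 regions held 25 Ad-Ets-1 reads, 63 Ad-GFP reads and 10 input reads over 8127 bp. Of them, 19 were called in the Ad-GFP list alone, 8 in the Ad-Ets-1 list alone and 1 in both. For its length Cacna1c held few regions, 7.39 per 100 kb against a median of 20.4 (quartiles 17.0 and 23.8) in 998 protein-coding genes of at least 200 kb, of which 12 had a lower density. No promoter region was listed. The first region inside the gene that was named for it, chr6:119118096-119118344, stood 78074 bp from the 5′ end and held 2 Ad-Ets-1, 0 Ad-GFP and 0 input reads. Between 221.0 and 396.7 kb no region named for Cacna1c was listed. Of the 45 listed regions in its span, 18 carried another gene name or none, and their places were not examined.

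The region with the most reads of all 115 was chr6:118632588-118633094 in intron 30 of 46 of Cacna1c, and its reads came from the Ad-GFP library and the input. It held 0 Ad-Ets-1 reads, 14 Ad-GFP reads and 2 input reads. The Ad-GFP reads were 5.09 times the floor of 3 Ad-Ets-1 reads after scaling. The interval of the Ad-Ets-1 to Ad-GFP ratio, 0 to 0.636, lay below 1. The region was listed through the Ad-GFP library alone and is the most read of the 115, so the interval was computed on the reads that selected it and is given as a description. This was the only one of the 21 regions with over 3 reads whose interval lay below 1, against 0.481% of 79976 such regions in the table. An interval above 1 was found for 0 of 21, against 0.264%. It takes at least 11 Ad-Ets-1 reads, and no region of the 8 genes held more than 8. The counts thus fixed this 0, and nothing is read from it. The authors' deposited Ad-GFP list gives it a fold enrichment of 4.19 and a −log10 q of 1.59.

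Intron 3 of 46 held 11 of the Cacna1c regions, with 17 Ad-Ets-1 and 25 Ad-GFP reads over 3719 bp. Within it, 7 regions fell in 10 kb that began 197.6 kb from the 5′ end, with 10 Ad-Ets-1, 11 Ad-GFP and 1 input reads. Neighbours in that cluster came from both lists. For example, chr6:118996778-118997211 held 4, 0 and 0 reads (Ad-Ets-1, Ad-GFP, input) and chr6:118998465-118998836 held 0, 4 and 1. Also in intron 3, chr6:118799347-118799726 held 0, 6 and 2 reads in that order, chr6:119040113-119040734 held 2, 6 and 0, and chr6:118975190-118975438 held 5, 0 and 0.

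Cacna1d encodes CaV1.3, the L-type pore that opens at more negative potentials (chr14:30039939-30491455, minus strand, 451.5 kb). It had the most regions of the 8 genes, 44, with 25 in the Ad-GFP list alone, 18 in the Ad-Ets-1 list alone and 1 in both. Over 11009 bp they held 49 Ad-Ets-1 reads, 56 Ad-GFP reads and 7 input reads. Its density of 16.4 per 100 kb exceeded that of 217 of the 998 long genes. The first 129.3 kb of the gene held no region named for it. Of the 74 listed regions in its span, 35 carried another gene name or none, and their places were not examined.

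Of the regions named for Cacna1d, 18 were annotated to intron 3 of a transcript, 9 called in each list. They held 24 Ad-Ets-1 and 23 Ad-GFP reads over 4479 bp. Most lay in intron 3 of 46 of Cacna1d. However, chr14:30493740-30493977 (1 Ad-Ets-1 and 2 Ad-GFP reads) and chr14:30496408-30496656 (2 and 0) lay in intron 3 of 5 of Dcp1a, before Cacna1d. Both of the most read regions of the gene lay in its intron 3 of 46, and they pointed in opposite directions. The first, chr14:30313799-30314053, held 7 Ad-Ets-1 reads, 0 Ad-GFP reads and 2 input reads. That is 2.14 times the floor of 3 Ad-GFP reads, with an interval from 0.605 with no upper limit. Its deposited fold enrichment was 4.10 and its −log10 q 1.54. The second, chr14:30288154-30288481, held 0 Ad-Ets-1 reads, 8 Ad-GFP reads and 0 input reads, 2.91 times the floor of 3 Ad-Ets-1 reads, with an interval of the Ad-Ets-1 to Ad-GFP ratio from 0 to 1.39.

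At the 5′ end of Cacna1d, chr14:30491945-30492182 lay 490 bp before the gene and held 0 Ad-Ets-1, 2 Ad-GFP and 1 input reads. It was the single region of the Ad-GFP list among the 8 genes within 1 kb of a 5′ end, where 20.8% of protein-coding genes had one. Beside it, chr14:30492641-30492963 was called in both lists with 2, 2 and 0 reads and was the most read promoter region of the gene. Both regions overlap the neighbouring gene Dcp1a.

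Glp1r and Gipr encode the receptors for the incretins GLP-1 and GIP. Glp1r (chr17:30901817-30940791, plus strand) was named for 7 regions with 5 Ad-Ets-1, 14 Ad-GFP and 0 input reads over 1704 bp, but 6 of them lay 22489 to 34885 bp before the gene. Of these, 5 fell in the span of Dnah8. The region inside the gene, chr17:30921024-30921261 in intron 5 of 12, lay 19207 bp from the 5′ end and was also the nearest to it, with 1 Ad-Ets-1, 2 Ad-GFP and 0 input reads. The most read, chr17:30879075-30879328, held 0, 4 and 0 reads in the same order. Gipr (chr7:19156061-19166127, minus strand) had 1 region, chr7:19161608-19161845 in intron 7 of 13, 4282 bp from the 5′ end, with 0 Ad-Ets-1, 2 Ad-GFP and 0 input reads. Neither receptor gene had a promoter region, and neither had a region with over 3 Ad-Ets-1 reads.

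**Figure D3:**
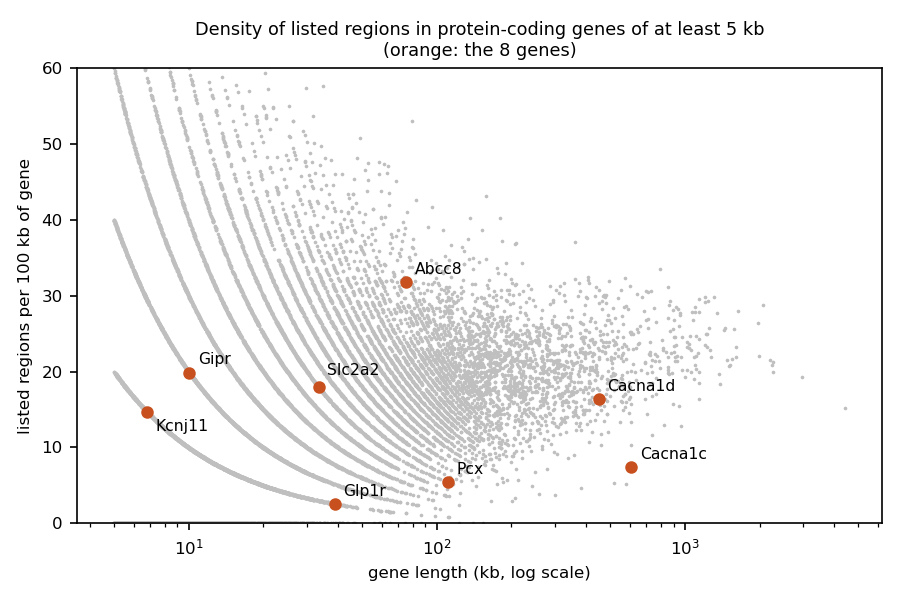
Listed regions per 100 kb of gene (vertical axis) by gene length in kb (horizontal log axis) for 17694 protein-coding genes of at least 5 kb in grey, with the 8 genes in orange; 170 genes above 60 are outside the axis. Cacna1c lies at the lower edge of genes of its length at 7.39, and Abcc8 lies highest of the 8 at 31.8.

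Across the 8 genes, 21 regions had over 3 reads in a precipitated library, 9 of them with Ad-Ets-1 alone, 11 with Ad-GFP alone and 1 with both. At least 2-fold higher with Ad-Ets-1, with the lower library raised to the floor of 3 reads, were 2 of the 21 (9.52%, exact interval 1.18 to 30.4, against 3.45% of 79976 regions in the table): the Abcc8 intron 3 and Cacna1d intron 3 regions. At least 2-fold higher with Ad-GFP were 4 of 21 (19%, exact interval 5.45 to 41.9, against 10.2%), namely 3 in Cacna1c and 1 in Cacna1d. Both intervals hold the shares over all regions. Most of these calls rest on the floor of 3 reads, which is under 2 fragments: with a floor of 3 fragments, 0 regions were called for Ad-Ets-1 and 1 for Ad-GFP, the Cacna1c intron 30 region. A region enters the table through a peak in at least 1 library, so its reads there are high by selection. The balance depended on the scaling: 2 against 4 after scaling to library totals became 6 against 2 after scaling to the reads in listed regions. The 2-fold call against the input was met by 10 of 10 regions with over 3 Ad-Ets-1 reads and 12 of 12 with over 3 Ad-GFP reads (99.9% in the table for each library). No region had more than 2 input reads, so the choice of regions fixed this outcome and nothing is read from it.

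**Figure D4:**
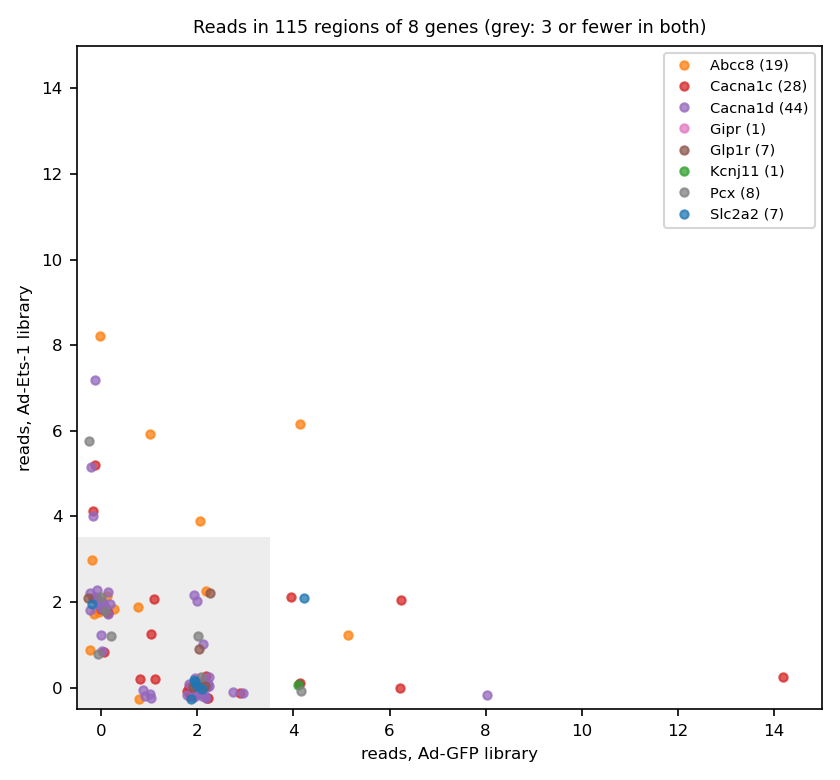
Reads in the Ad-GFP library (horizontal axis) and in the Ad-Ets-1 library (vertical axis) for each of the 115 regions, coloured by gene with the number of its regions in the legend; points are shifted at random by under 0.3 reads so that equal counts can be seen. Of the regions, 94 lie in the grey corner of 3 or fewer reads in both, and 20 of the 21 outside it have over 3 reads in 1 library only.

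By the authors' q-values, 4 of 48 Ad-Ets-1 peaks of these genes (8.33%, exact interval 2.32 to 19.98) were at or below 0.05, against 1.38% of all Ad-Ets-1 peaks. They lay in 3 of the 8 genes, Abcc8, Cacna1d and Pcx, against 6.74% of 19054 named genes. In the Ad-GFP list it was 1 of 73 (1.37%, exact interval 0.0347 to 7.40, against 0.827%), in Cacna1c, against 5.39% of named genes. Gene length was not matched in these shares, peaks of a gene share their locus, and the genes were chosen with earlier results of these data known. The next 7 Ad-Ets-1 peaks all had a q-value of 0.285 and the next 10 Ad-GFP peaks 0.274. At the largest q-value of a list stood 36 of 48 (0.820) and 61 of 73 (0.764).

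Promoter peaks of the Ad-Ets-1 list were named for 3 of the 8 genes (Abcc8, Cacna1d, Pcx), against 37.7% of named genes. Those of the Ad-GFP list were named for 3 as well (Abcc8, Cacna1d, Slc2a2), against 48.6%. The exact interval of 3 of 8, from 8.52% to 75.5%, holds both. Within 1 kb of the 5′ end of the gene, 2 of 8 had a region from either list, against 30.7% of protein-coding genes. RefSeq promoter windows (250 bp before to 50 bp after a start, GRCm38.p6) were matched for 5 of the 8 genes, with 9 windows. The words CCGGAAGT and CAGGAAGT were in none of the 9, against 3.89% and 3.33% of 32851 promoters, and GGAA was in 8, against 96%.

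A list of 57 further genes of the same pathways was followed in the same way, and 50 of them were named as nearest gene of a region. Of these 50, promoter peaks were found for 30 with Ad-Ets-1 (37.7% of all named genes had one), 35 with Ad-GFP (48.6%) and 26 with both. A peak with a q-value of at most 0.05 was listed for 7 of the 50 with Ad-Ets-1, against 6.74% of named genes, and for 7 with Ad-GFP, against 5.39%. The 50 genes were named for 983 regions, and neither gene length nor the number of regions per gene was matched in these shares. Of 148 regions with over 3 reads, 5 (against the 3.45% above) were at least 2-fold higher with Ad-Ets-1 and 19 (against 10.2%) with Ad-GFP.

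Among 17 genes of glucose uptake and metabolism, 15 were named for a region. Of these 15, 9 had an Ad-Ets-1 promoter peak (against 37.7% of all named genes) and 14 an Ad-GFP one (against 48.6%). Gene length was not matched in this or the following group counts. The most read promoter region was that of the hexokinase Hk1, with 10 Ad-Ets-1, 0 Ad-GFP and 2 input reads and an interval from 0.839 with no upper limit. Those of the pyruvate kinase Pkm (4, 4 and 0 reads in that order) and the transporter Slc2a1 (5, 0 and 0) followed. All 11 further calcium channel subunits were named for a region. Of these 11, 9 had a promoter peak in each list (against 37.7% and 48.6%), and Cacna1e alone was named for 144 regions. The pores Cacna1b and Cacna1e each held 6 Ad-Ets-1 and 0 Ad-GFP reads, while Cacna1g held 0 and 6. The intervals of all of these ratios included 1.

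Of 15 potassium and other channels, 14 were named for a region. Among these 14, 6 had an Ad-Ets-1 promoter peak (against 37.7% of all named genes) and 7 an Ad-GFP one (against 48.6%). No promoter region exceeded 5 reads (0 and 5 in Clcn3, a chloride transporter, 3 and 0 in each of Kcnma1 and Trpm2). Of 14 receptors and cAMP genes, 10 were named for a region. Among these 10 the counts were 6 and 5, against the same 37.7% and 48.6%. There the promoter region of the muscarinic receptor Chrm3, chr13:9877409-9878317, held 14 Ad-Ets-1, 18 Ad-GFP and 4 input reads, more than any region of the 8 genes. Its ratio was 0.713 with an interval from 0.226 to 2.15. The promoters of Pde3b (4 and 2 reads) and Gnas (1 and 2) were the next most read.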

How the data were processed

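Deposited files of 1 Ad-Ets-1, 1 Ad-GFP and 1 input library were used, with groups taken from the sample titles. Per the submitters' processing notes, the tools were Trimmomatic, FastQC, MACS2 2.1.0 and BWA 0.7.12 and the build was mm10. Their settings, and the part of the input in peak calling, are not stated in the labels. Each peak carries a fold enrichment ratio and its −log10 q-value, per the file headers, and these served only to describe peaks of 1 list. Read counts and RPM of each region and library were deposited as a comparison table. RPM is the count plus 1 over the library total, and totals recovered from all regions differed by under 1%. Classes and nearest genes are the deposited ones. Positions were set against GENCODE M21, with which 30 of 32 transcripts shared coordinates. Coordinates are 1-based, peak starts having been raised by 1.

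Regions with 3 or fewer reads in both libraries got no ratio. A library with fewer reads was raised to a floor of 3 reads for the 2-fold call, which is not a limit of the true ratio. Ratio intervals are exact conditional binomial intervals on fragments, odd counts being rounded up, and share intervals are Clopper-Pearson, both at 95%. Peaks were overlapped by at least 1 bp. Interval coverage was tested on simulated data in which every count was a whole number of read pairs. The real counts include odd values, and the regions were chosen by their reads, so the simulation cannot show the coverage in these data. No test was run across genes, and samples were not split.

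The 8 genes and the pathway lists were chosen with earlier results of these data known. Named were all 8 genes, per gene the most read promoter region, the most read region, the region nearest the 5′ end and every region of at least 8 reads, and the 3 pathway genes per group with the most read promoters. The other regions given by position were chosen after their values were seen. The software was bedtools 2.31.1 and Python 3.11.15 with scipy 1.17.1, numpy 2.4.6, pysam 0.24.0, pandas 2.3.3 and matplotlib 3.10.9.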

Additional observations from a re-analysis of the deposited data

How the results depend on the processing

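No paired analysis was possible because there is 1 library in each group, and none could be left out. Of the counts below, those under the alternatives not named stayed within 1.5 times. The ratios of named regions with 0 reads in 1 library depend on the floor: with a pseudocount of 1 read in its place, Ad-Ets-1 over Ad-GFP went from 2.44 to 8.25 (Abcc8 intron 3), 2.14 to 7.33 (Cacna1d intron 3), 1.83 to 6.41 (Pcx), 0.196 to 0.0611 (Cacna1c intron 30) and 0.344 to 0.102 (Cacna1d, Ad-GFP region). Their direction could not turn under any setting run. Regions at least 2-fold higher with Ad-Ets-1 numbered 2, and 6 with scaling to reads in listed regions, 8 with a pseudocount of 1 read, 1 with a minimum of 8 reads and 0 with a floor of 3 fragments, an alternative chosen after seeing the data. Those higher with Ad-GFP numbered 4, and 2, 9, 2 and 1 under the same settings. Regions above input fell from 10 to 0 and from 12 to 0 with scaling to listed regions, by construction, since listed regions hold 40374 input reads against 579086 and 745360, and to 1 and 2 with at least 8 reads, since fewer regions were compared. With a q-value of at most 0.05, and also with a fold enrichment of at least 3, peaks fell from 48 to 4 and from 73 to 1, genes with a promoter peak from 3 to 1 (Ad-Ets-1) and from 3 to 0 (Ad-GFP), and overlapping peaks from 6 to 0. Overlapping peaks numbered 3 with a reciprocal overlap of 50%. With intervals on reads instead of fragments, those of the Abcc8 intron 3, Cacna1d intron 3 and Pcx regions would also leave out 1, with lower limits of 1.56, 1.32 and 1.08, and that of the Ad-GFP region in Cacna1d intron 3 with an upper limit of 0.537. Against 0 reads in the other library, an interval excluded 1 only from 11 Ad-Ets-1 or 9 Ad-GFP reads.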
